A study of Mus musculus with 11 samples.

Results

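The genes described here are 47 genes of DNA replication and of the G1/S transition of the cell cycle. They were picked by symbol for a role in origin licensing, replicative polymerases, nucleotide supply or G1/S regulation, with earlier results of these data known. All 47 were found among the 24411 gene symbols of the count table. Of these, 46 passed the filter on low counts that left 16011 genes to be tested, and Orc1 did not pass it. RNA was sequenced from mesenchymal cells of the lungs of C57BL6 mice, sorted by flow cytometry as negative for the epithelial marker EpCAM, the leukocyte marker CD45 and the endothelial marker CD31. The mice had undergone either pneumonectomy (PNX), in which part of the lung is surgically removed and the remaining lung grows, or a sham operation. Cells were taken at day 14 after PNX (3 libraries), day 7 after PNX (3), day 14 after sham (2) and day 7 after sham (3). The labels name no transgene and do not say whether cells of several animals were pooled or whether replicates were separate animals. The p-values therefore set the difference between groups against the spread of libraries within groups, and that spread may be partly technical.

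Before a cell copies its DNA, the origin recognition complex (Orc1 and Orc6 among its subunits) recruits Cdc6 and Cdt1, which load the ring of Mcm2 to Mcm7 onto DNA in G1, a step called licensing. Mcm10, Cdc45 and the GINS complex then turn that ring into the active helicase. DNA polymerase alpha with primase starts each strand, polymerases delta and epsilon extend it, the clamp PCNA keeps them on the template, and the nucleotide enzymes Rrm1, Rrm2, Tyms, Tk1 and Dut supply the building blocks. Cyclin D with Cdk4 and cyclin E with Cdk2 inactivate the retinoblastoma protein, which frees E2F transcription factors. Many replication genes are E2F targets, and their transcripts peak around the entry into S phase. Lung fibroblasts of the adult mouse are mostly quiescent.

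The 11 libraries held 2539628 to 9008592 counts. The sorted cells carried the mesenchymal markers, with all 9 of 9 (Col1a1, Pdgfra and others) above 0 in every library and a summed level of 12906 to 27600 CPM (a gene's share of the counts of its library, scaled by TMM factors, the unit of all levels below). Transcripts of other lineages were present as well, at levels that differed between libraries. Haematopoietic markers, 25 genes, summed to 1529 to 2024 CPM in PNX day 14, 326.5 to 937 CPM in PNX day 7, 2162 and 2366 CPM in sham day 14 and 247.4 to 1589 CPM in sham day 7, with up to 4 of the 25 at 0 in a library. Cd74 and Lyz2 carry most of these sums at day 14, and most other markers of the list stood higher in sham: the mean log2 CPM over the list was 1.55 to 1.70 in PNX day 14, 1.63 to 2.07 in PNX day 7, 3.77 and 3.59 in sham day 14 and 1.17 to 2.61 in sham day 7. Epithelial markers, 10 genes, summed to 214.4 to 17950 CPM and endothelial markers, 10 genes, to 144 to 1257 CPM, with none at 0 in any library; Sftpc is the highest epithelial marker in most libraries, and Krt8 and Krt18 differed with the surgery, as given with day 7. Erythroid markers, 6 genes, summed to 256.7 to 79895 CPM, with up to 3 at 0, and mesothelial markers, 7 genes, to 612.7 to 3666 CPM, with up to 1 at 0. Their part in the results below was not tested, apart from the fits with a haematopoietic or background covariate.

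A single library stood apart in a way that bears on replication genes. In sham day 7 replicate 3, 12 genes of the T lineage, a list chosen after its values were seen, summed to 244.2 CPM, against at most 45 CPM in the other 10 libraries. The highest were Lck, a kinase of T-cell receptor signalling, at 72.2 CPM, the transcription factor Tcf7 at 49.4 CPM and Dntt, the terminal transferase of immature lymphocytes, at 29.3 CPM. Cd4 stood at 7.10 CPM and Cd8a at 14.1 CPM. The same library had the highest level among the 3 sham day 7 libraries for 37 of the 46 tested replication genes (80.4%), where it was the highest of the 3 for 31.5% of all genes. It held 94.5 CPM of Rrm2, 37.5 of Mcm2, 41.8 of Pold1 and 21.0 of Uhrf1, against at most 41.6, 16.3, 14.2 and 14.4 CPM of these genes in any other library. Rrm2 was singled out after its values were seen. Whether the T-lineage transcripts and the replication transcripts of that library came from the same cells was not tested, and the results of day 7 are given with all libraries and, by role and for the genes named, without that one. Sham day 7 replicate 2 lay to the other side, as the highest of the 3 for 2 of the 46 genes (4.35%, against 36.5% of all genes). Leaving out replicate 2 lowered the median at day 7 to 0.02, and that fit is given for the set as a whole. The bar plot of T-lineage and replication genes shows both sets by library.

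**Figure D1:**
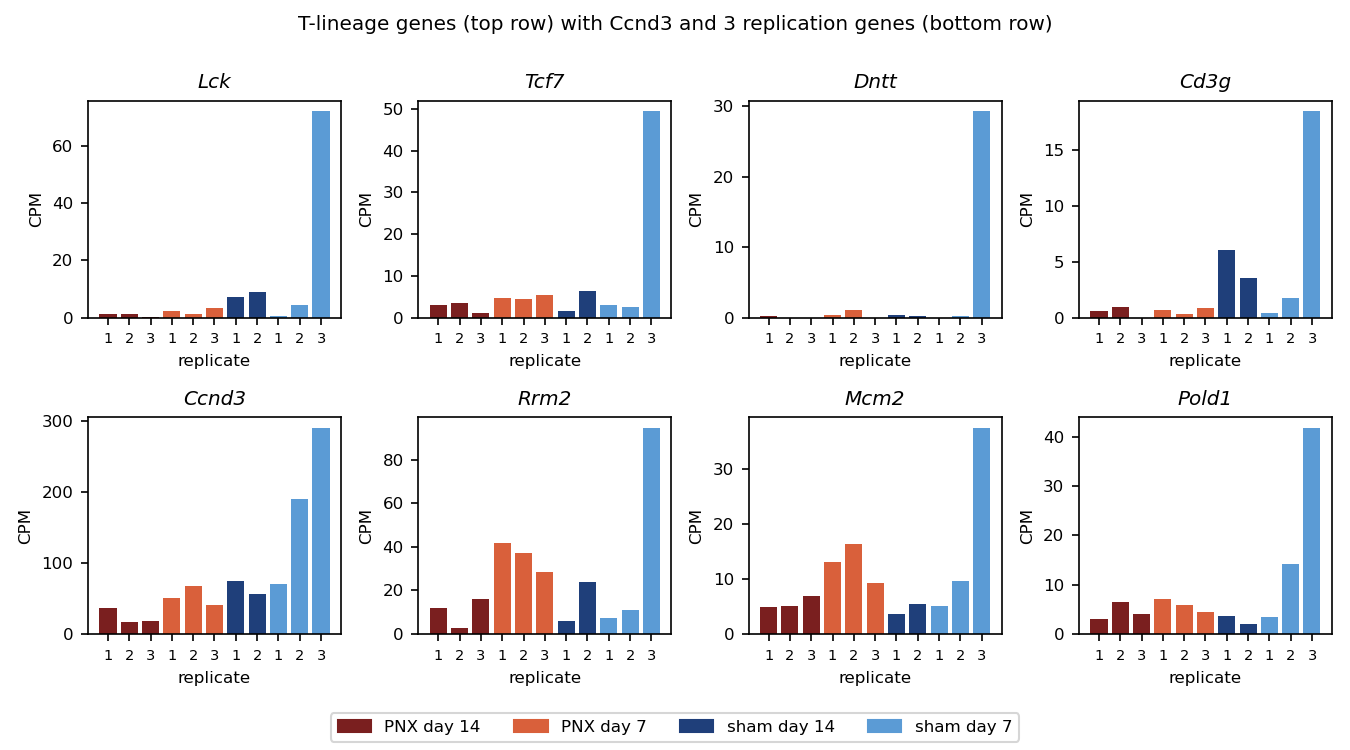
Levels in CPM (vertical axes) in the 11 libraries by group and replicate number: T-lineage genes Lck, Tcf7, Dntt and Cd3g in the top row, and cyclin D3 (Ccnd3) with the replication genes Rrm2, Mcm2 and Pold1 in the bottom row. Sham day 7 replicate 3 is the highest library in each of these 8 panels, at 72.2 CPM of Lck and 94.5 CPM of Rrm2; the 8 genes were chosen after their values were seen.

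The E2F-type motif of replication genes was looked for in promoter windows, since E2F control is what many of these genes share. Windows from 250 bases before to 50 bases after the RefSeq transcription start (GRCm38.p6) were found for 38 of the 47 genes. Some of these genes have several starts, each with its own window, and such a gene was counted when any window matched. The letters searched on both strands were TTTCCCGC, TTTGGCGC, TTTCGCGC and TTTGCCGC, with overlapping matches counted. At least 1 match was present in 15 of the 38 (39.5%): Orc1, Cdc6, Cdt1, Mcm3, Mcm5, Mcm6, Mcm7, Pola1, Pole2, Pold1, Rfc3, Lig1, Uhrf1, Cdk2 and E2f2. The share was 2.6% (704 of 27025) over all genes with a window and 4.19% (503 of 12006) over the tested genes with one. A match is a description of the letters and not a bound site. 4 promoters of genes whose levels carry the comparisons below are printed, 250 bases before the start, 5′ to 3′ on the gene's strand, with matches in capitals. Mcm5 (chr8:75109259-75109508, plus strand) has a pair of overlapping matches that begin at positions -153 and -149 from the start. The printed Mcm7 window (chr5:138171884-138172133, minus strand) has 1 match at position -165, and another lies at position 16, outside the printed stretch. A further window of Mcm7, with chr5:138171267-138171516 before its start, has no match. Rfc3 (chr5:151651209-151651458, minus strand) has 1 match at position -10 and another at position 0, the start itself. Tk1 (chr11:117826015-117826264, minus strand) has no match to these letters, from which nothing follows about E2F binding there.
Mcm5: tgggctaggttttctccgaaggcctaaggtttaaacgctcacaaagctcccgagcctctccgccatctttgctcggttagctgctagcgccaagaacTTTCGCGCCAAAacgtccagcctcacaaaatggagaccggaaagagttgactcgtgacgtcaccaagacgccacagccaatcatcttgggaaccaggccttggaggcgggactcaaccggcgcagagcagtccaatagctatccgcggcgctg
Mcm7: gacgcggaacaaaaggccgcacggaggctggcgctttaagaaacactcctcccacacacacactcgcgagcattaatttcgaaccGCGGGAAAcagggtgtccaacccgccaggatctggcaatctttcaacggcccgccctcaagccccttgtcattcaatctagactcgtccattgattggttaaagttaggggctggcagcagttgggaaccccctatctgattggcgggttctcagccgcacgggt
Rfc3: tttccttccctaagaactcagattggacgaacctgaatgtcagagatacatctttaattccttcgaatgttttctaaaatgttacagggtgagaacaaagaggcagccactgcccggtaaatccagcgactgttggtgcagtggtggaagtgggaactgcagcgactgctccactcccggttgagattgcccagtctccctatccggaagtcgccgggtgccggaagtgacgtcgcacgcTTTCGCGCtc
Tk1: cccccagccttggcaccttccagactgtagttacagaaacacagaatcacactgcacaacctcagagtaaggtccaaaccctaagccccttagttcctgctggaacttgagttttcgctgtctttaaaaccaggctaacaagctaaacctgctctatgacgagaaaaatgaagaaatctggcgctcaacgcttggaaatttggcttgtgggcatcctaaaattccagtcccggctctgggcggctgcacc

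Among themselves, the genes spanned a wide range of levels per kilobase of exon. Averaged over the 11 libraries, Pcna, the sliding clamp, was highest at 35.9 CPM per kilobase, followed by the kinase Cdk4 at 28.4, the cyclin Ccnd2 at 22.8 and the histone mRNA binding protein Slbp at 20.8. The lowest were the polymerase epsilon catalytic subunit Pole at 0.282, Mcm10 at 0.308 and Orc1 at 0.326 CPM per kilobase. Neighbours in this order were not tested against each other. Orc1, the largest subunit of the origin recognition complex, rested on 0 to 11 counts per library and is given as values only. It stood at 1.12, 0 and 0.674 CPM in PNX day 14 and 0.850, 2.77 and 1.28 CPM in PNX day 7. In sham it stood at 1.34 and 1.22 CPM at day 14 and 0.984, 0.644 and 1.59 CPM at day 7. The heat map of all 47 genes shows how the libraries differed for each gene.

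**Figure D2:**
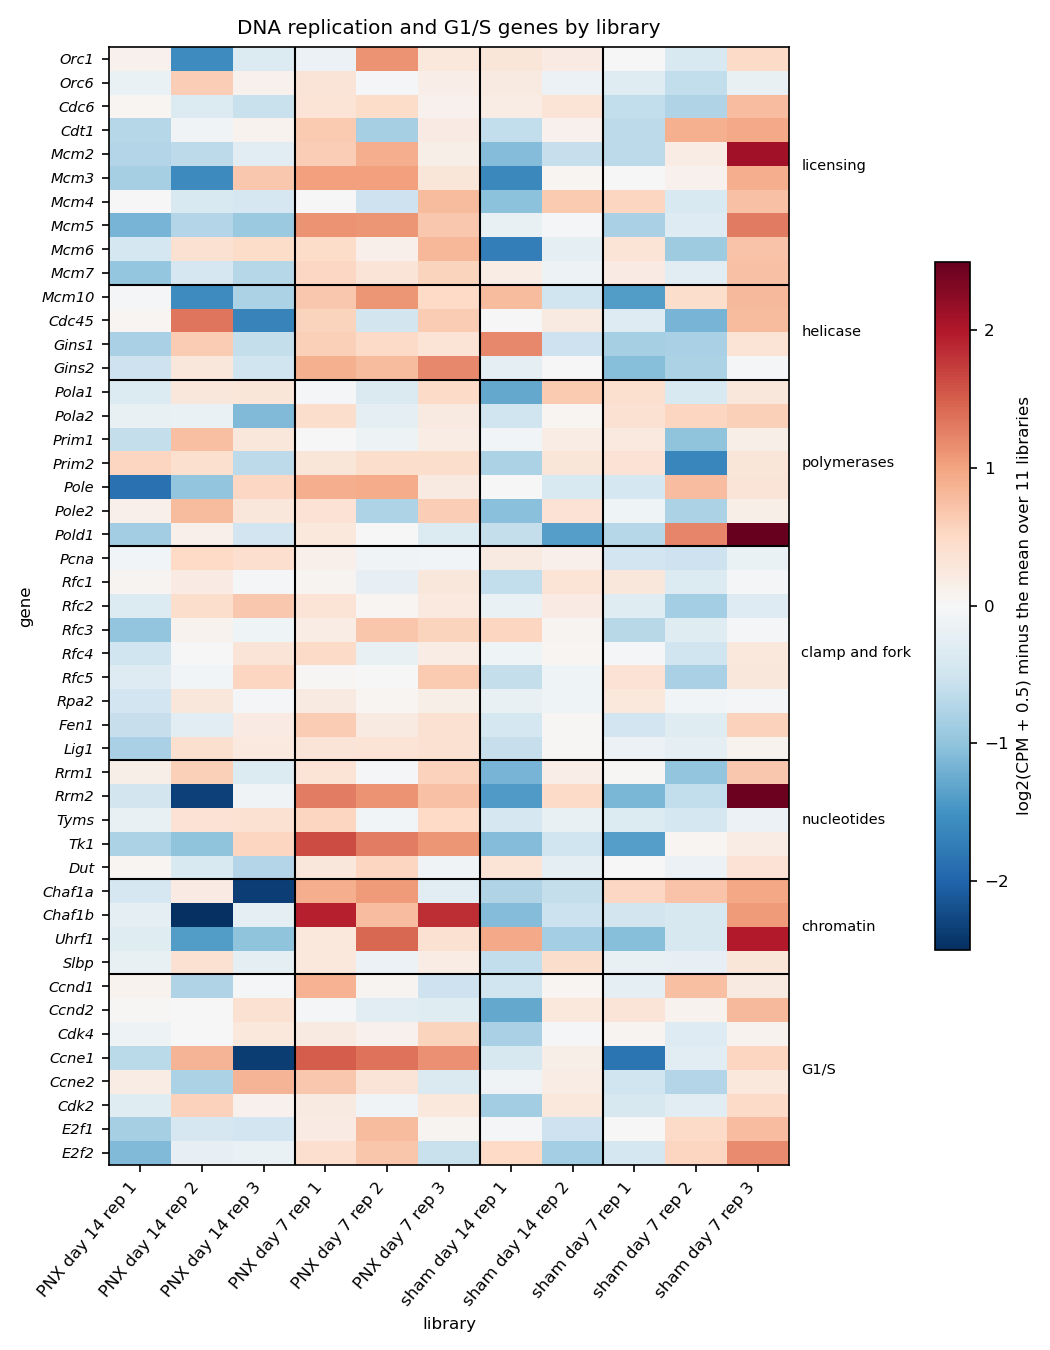
Each cell is the log2(CPM + 0.5) of a gene (rows, by role) in a library (columns, by group) minus the gene's mean over the 11 libraries; colours end at 2.5 in either direction. The PNX day 7 columns are mostly red, the PNX day 14 columns mostly blue in the licensing and chromatin rows, and sham day 7 replicate 3 is red for Mcm2, Rrm2, Pold1 and Uhrf1.

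PNX was compared with sham at day 7, to ask which replication genes differ in the first week after lung tissue is removed. Most stood higher after PNX: 33 of the 46 had a log2 fold change above 0 (71.7%, where 51.7% of all 16011 genes did), with a median of 0.28 against 0.03 for all genes. No gene of the 46 passed an adjusted p of 0.05 with edgeR's quasi-likelihood test, where 6 genes (0.0375%) did over the whole table. The lowest adjusted p was 0.147, for the GINS subunit Gins2. At an unadjusted p under 0.05, 6 were higher (13%, against 4.66% of all genes): Gins2, Rfc2, Rfc3, Tyms, Tk1 and Ccne1. Pold1 alone was lower at that level (2.17%, against 8.07%). All 3 PNX libraries lay above all 3 sham libraries for 10 genes (21.7%, against 9.95%): Orc6, Gins2, Pcna, Rfc2, Rfc3, Lig1, Tyms, Tk1, Cdk4 and Ccne1. They lay below for Ccnd2 (2.17%, against 9.57%). DESeq2 called Gins2 (adjusted p = 0.039), 1 of 46 (2.17%), where it called 3.82% of the genes it gave an adjusted p. Limma voom with sample weights called Gins2 (adjusted p = 0.037) and Tk1 (0.0197), 2 of 46 (4.35%), where it called 5.82% of all genes. In bulk RNA a larger share of cells expressing a gene and more RNA per cell cannot be told apart.

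Markers of other cells also differed with the surgery at day 7. Krt8 and Krt18, keratins of simple epithelia, did so without overlap. Krt8 had 167, 91.1 and 142 CPM in PNX day 7 and 47.8, 27.1 and 53.6 CPM in sham day 7 (log2 fold change 1.64 ± 0.36, unadjusted p = 0.000269, adjusted p = 0.0783 by edgeR), and Krt18 had 337, 134 and 224 CPM in PNX day 7 and 67.2, 67.2 and 88.2 CPM in sham day 7 (log2 fold change 1.64 ± 0.34, unadjusted p = 0.000161, adjusted p = 0.0752). The other 8 of the 10 epithelial markers overlapped between the groups. Of the 10, 4 were higher after PNX and 6 lower, with a median log2 fold change of -0.56. Endothelial markers were higher in 8 of 10 cases (median 0.74) and mesenchymal markers lower in 6 of 9 (median -0.59), where 51.7% of all genes were higher. Of the 24 haematopoietic markers tested, 10 were higher and 14 lower, 1 and 3 of them at an unadjusted p under 0.05. With the haematopoietic mean as a covariate, 35 of the 46 replication genes were higher after PNX (median 0.26), 6 of them at an unadjusted p under 0.05 (13%, against 5.61% of all genes). The part of these marker differences in the replication genes was not tested.

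Without sham day 7 replicate 3, 41 of the 46 were higher after PNX at day 7 (89.1%, where 51.3% of all genes were), with a median of 0.59 against 0.02 for all genes. At an unadjusted p under 0.05, 9 were higher (19.6%, against 2.65%): Mcm5, Gins2, Rfc3, Fen1, Rrm2, Tk1, Chaf1b, Uhrf1 and Ccne1. None was lower at that level (3.46% of all genes were), and none passed the adjusted threshold with edgeR (0.0626% of all genes did). The PNX and sham libraries did not overlap, with PNX higher, for 23 of the 46 (50%, against 11.9% of all genes). The library left out held the highest sham day 7 level for 37 of the 46 genes (80.4%, against 31.5% of all genes). Leaving it out lowers the sham day 7 mean of most of them, which alone moves every comparison that uses sham day 7. The values without it show how far the results rest on that library and are no separate evidence of a difference. The count of 6 also depended on the other libraries: it was 2 when replicate 1 or 3 of PNX day 7, replicate 2 of sham day 7 or replicate 2 of sham day 14 was left out. It was 3 when replicate 2 of PNX day 7, replicate 1 of sham day 7 or replicate 3 of PNX day 14 was left out. In those 7 fits 2.54% to 5.31% of all genes were higher at that level. The median was lowest, at 0.02 against 0.01 for all genes, without sham day 7 replicate 2. In that fit 25 of 47 genes were higher after PNX and 22 lower, where 50.6% of all genes were higher. The plot of log2 fold changes at day 7 sets the 2 fits side by side.

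**Figure D3:**
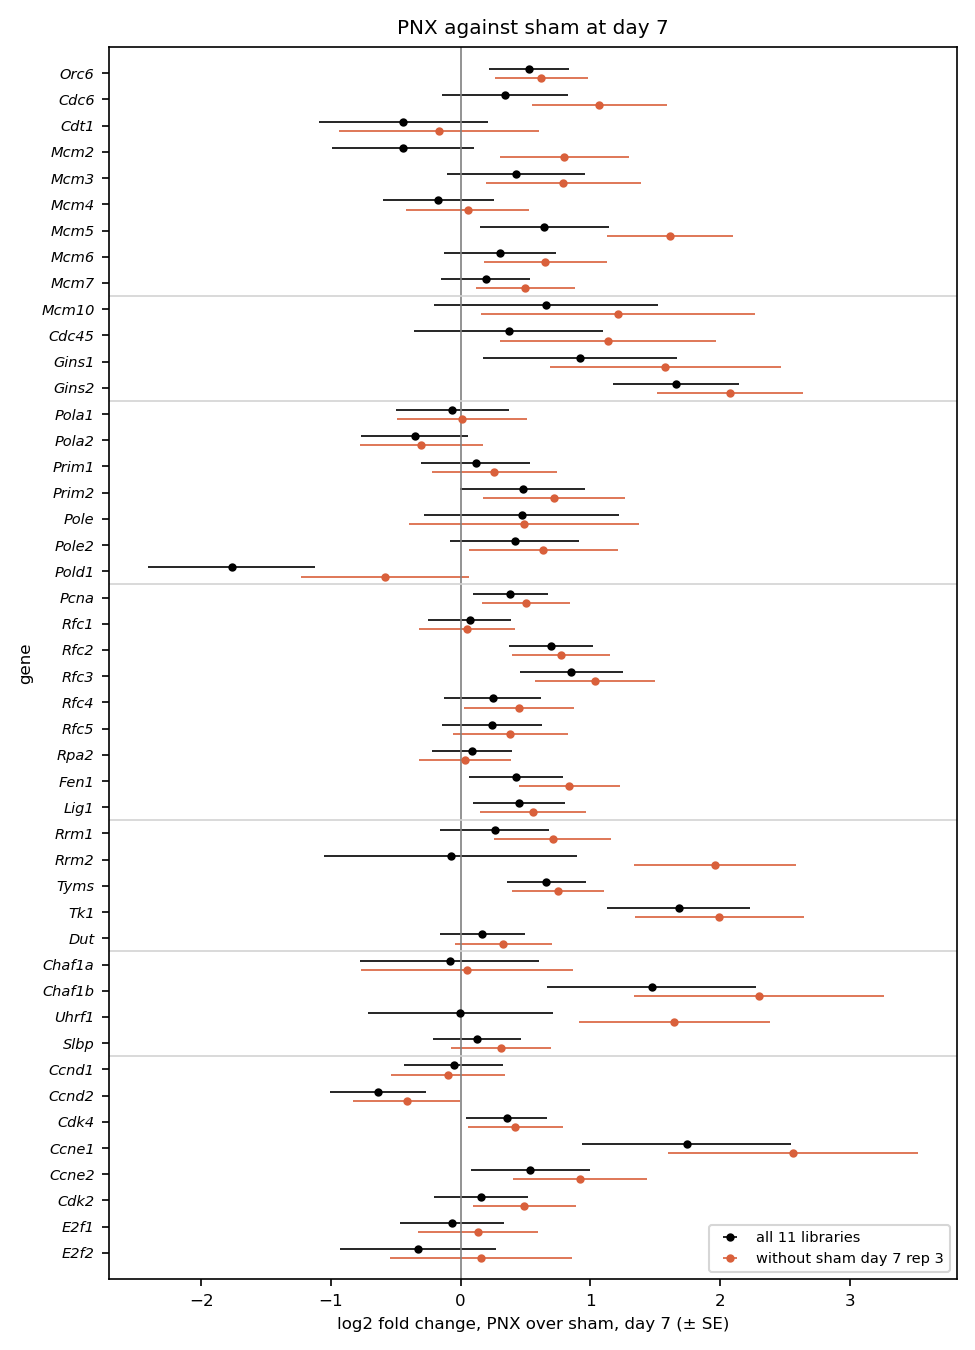
Log2 fold change of PNX over sham at day 7 (horizontal axis, points) with its SE (lines) for the 46 tested genes in order of role, from all 11 libraries (black) and without sham day 7 replicate 3 (orange). Of the 46 black points 33 lie above 0, and 41 of the orange ones do; Mcm2, Rrm2 and Uhrf1 move furthest to the right.

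Of the 9 origin recognition and licensing genes tested at day 7, 6 were higher after PNX and 3 lower (median log2 fold change 0.30), and none had an unadjusted p under 0.05. Without sham day 7 replicate 3, 8 of the 9 were higher (median 0.65), and Mcm5 had an unadjusted p under 0.05. Orc6, the smallest subunit of the origin recognition complex, had 36.4, 28.5 and 32.6 CPM in PNX day 7 and 23.5, 18.7 and 25.5 CPM in sham day 7. Its groups did not overlap (log2 fold change 0.53 ± 0.31, unadjusted p = 0.107, adjusted p = 0.532 by edgeR; 0.62 ± 0.36 without sham replicate 3). Mcm5, a subunit of the MCM ring, had 16.5, 16.3 and 11.9 CPM in PNX day 7 and 3.94, 5.80 and 18.7 CPM in sham day 7. The PNX libraries lay above sham replicates 1 and 2 and below sham replicate 3, which held the highest level of all (log2 fold change 0.65 ± 0.50, unadjusted p = 0.21, adjusted p = 0.667). Without that library the log2 fold change of Mcm5 was 1.62 ± 0.49 (unadjusted p = 0.00405, adjusted p = 0.462 by edgeR). Mcm2, another ring subunit, had 13.1, 16.3 and 9.38 CPM in PNX day 7 and 5.20, 9.66 and 37.5 CPM in sham day 7. Here the direction turned on sham replicate 3: the log2 fold change was -0.45 ± 0.55 with it (adjusted p = 0.795) and 0.80 ± 0.50 without it (adjusted p = 0.942 by edgeR).

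Mcm6 and Mcm7, the ring subunits of smallest p at day 14, overlapped between the groups at day 7. Mcm6 had 66.3, 52.0 and 85.3 CPM in PNX day 7 and 60.6, 25.6 and 78.7 CPM in sham day 7 (log2 fold change 0.30 ± 0.43). Mcm7 had 22.9, 19.9 and 23.6 CPM in PNX day 7 and 18.4, 12.9 and 26.8 CPM in sham day 7 (0.19 ± 0.34). In both genes sham replicate 2 was the lowest of the 6 libraries. The other ring subunits and the loaders had log2 fold changes of 0.43 (Mcm3), -0.17 (Mcm4), 0.34 (the loader Cdc6) and -0.44 (the loader Cdt1), with adjusted p from 0.798 to 0.902. With sham replicate 3 left out, the log2 fold changes were 0.65 ± 0.47 for Mcm6, 0.50 ± 0.38 for Mcm7, 0.79 for Mcm3, 0.06 for Mcm4, 1.07 for Cdc6 and -0.17 for Cdt1, so that Mcm4 had the opposite sign.

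All 4 genes of helicase activation were higher after PNX at day 7 (median 0.79), and 1 of them, Gins2, had an unadjusted p under 0.05. Gins2, a subunit of the GINS complex that completes the helicase, had 10.7, 9.97 and 13.5 CPM in PNX day 7 and 2.39, 3.01 and 5.37 CPM in sham day 7. The lowest PNX library was above the highest sham library (log2 fold change 1.66 ± 0.48, unadjusted p = 0.00305, adjusted p = 0.147 by edgeR). Of the exon bases of Gins2, 67.3% are shared with Gse1 on the opposite strand, and since the strand setting of the counting is not given in the sources used here, reads of the pair cannot be told apart. Gins1, another GINS subunit, had 4.25, 3.88 and 3.47 CPM in PNX day 7 and 1.26, 1.29 and 3.48 CPM in sham day 7. It rested on 6 to 27 counts per library in these 2 groups, and its lowest PNX library lay just below the highest sham library (log2 fold change 0.92 ± 0.75, adjusted p = 0.69). Mcm10, which helps to activate the helicase, had 3.40, 4.71 and 2.96 CPM in PNX day 7 and 0.42, 2.79 and 3.77 CPM in sham day 7. Its groups overlapped, on 3 to 26 counts per library (0.66 ± 0.86). Cdc45, the remaining part of the active helicase, had a log2 fold change of 0.37 ± 0.73. Leaving out sham replicate 3 gave 2.08 ± 0.56 for Gins2 (unadjusted p = 0.00175, adjusted p = 0.359 by edgeR), 1.58 ± 0.89 for Gins1, 1.22 ± 1.06 for Mcm10 and 1.14 ± 0.83 for Cdc45, a median of 1.40.

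Polymerase and primase genes were mixed in direction at day 7: 4 of 7 were higher after PNX and 3 lower, with a median of 0.12. Pold1, the catalytic subunit of polymerase delta, had 7.14, 5.82 and 4.50 CPM in PNX day 7 and 3.37, 14.2 and 41.8 CPM in sham day 7. Sham replicates 2 and 3 were above every PNX library, and sham replicate 1 was below them (log2 fold change -1.77 ± 0.65, unadjusted p = 0.0141, adjusted p = 0.241 by edgeR). The log2 fold change was -0.58 ± 0.65 without sham replicate 3 and -2.27 ± 0.52 without sham replicate 1. In that fit its adjusted p was 0.0251, 1 gene of the 46 (2.17%), where 2.66% of all genes passed. Pola2, the accessory subunit of polymerase alpha, had 11.4, 6.92 and 9.77 CPM in PNX day 7 and 11, 12.2 and 12.9 CPM in sham day 7 (log2 fold change -0.35 ± 0.41). Prim2, the large primase subunit, had 17, 18.8 and 18.9 CPM in PNX day 7 and 17.7, 4.08 and 17.1 CPM in sham day 7 (0.48 ± 0.48). Both overlapped between the groups, and the low sham value of Prim2 was in replicate 2. Pola1, Prim1, Pole and Pole2, the other polymerase alpha, primase and polymerase epsilon subunits, ranged from -0.06 to 0.47. Without sham replicate 3, 5 of the 7 were higher (median 0.26), with 0.72 ± 0.55 for Prim2 and -0.30 ± 0.47 for Pola2.

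The 9 genes of the clamp, the clamp loader, single-strand binding and Okazaki fragment joining were all higher after PNX at day 7, by 0.07 to 0.85 on the log2 scale (median 0.38). Rfc2 and Rfc3, subunits of the RFC complex that loads the clamp, had an unadjusted p under 0.05. Rfc3 had 12.1, 17.4 and 15.8 CPM in PNX day 7 and 6.33, 8.38 and 10.3 CPM in sham day 7 (log2 fold change 0.85 ± 0.40, unadjusted p = 0.0463, adjusted p = 0.383 by edgeR). Rfc2 had 59.8, 48.7 and 56.0 CPM in PNX day 7 and 38.2, 25.8 and 37.4 CPM in sham day 7 (log2 fold change 0.70 ± 0.32, unadjusted p = 0.0447, adjusted p = 0.376). Neither gene overlapped between the groups. Rfc2 shares 15.1% of its exon bases with Lat2 on the opposite strand. Pcna, the clamp itself, had 92.5, 79.2 and 79.8 CPM in PNX day 7 and 60.0, 58.2 and 74.5 CPM in sham day 7. Its groups did not overlap either, at a smaller log2 fold change of 0.38 with a 95% interval of -0.23 to 0.99 (adjusted p = 0.66). The flap nuclease Fen1 (0.43) and the ligase Lig1 (0.45), which finish Okazaki fragments, came next, and Rfc1, Rfc4, Rfc5 and the single-strand binding subunit Rpa2 had 0.07 to 0.25. Fen1 shares 78.8% of its exon bases with the predicted gene Gm10143 on the opposite strand. All 9 were also above 0 without sham replicate 3 (median 0.50), with 1.04 ± 0.46 for Rfc3, 0.78 ± 0.38 for Rfc2, 0.50 ± 0.34 for Pcna and 0.84 ± 0.39 for Fen1.

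In nucleotide supply, 4 of 5 genes were higher after PNX at day 7, and Tk1 and Tyms had an unadjusted p under 0.05. Tk1, the thymidine kinase of dividing cells, had 18.2, 14.1 and 12.6 CPM in PNX day 7 and 1.83, 5.80 and 6.38 CPM in sham day 7. Every PNX library held more than every sham library (log2 fold change 1.68 ± 0.55, unadjusted p = 0.00694, adjusted p = 0.188 by edgeR). Tyms, the thymidylate synthase, had 43.3, 28.5 and 42.1 CPM in PNX day 7 and 23.3, 21.9 and 27.0 CPM in sham day 7. The groups did not overlap, though the lowest PNX library was close to the highest sham library (log2 fold change 0.66 ± 0.30, unadjusted p = 0.0438, adjusted p = 0.373). Rrm1, the large subunit of ribonucleotide reductase, had 63.9, 49.6 and 75.3 CPM in PNX day 7 and 51.7, 25.1 and 80.5 CPM in sham day 7, with sham replicate 3 the highest of the 6 (0.26 ± 0.42). Its partner Rrm2, the small subunit made in S phase, had 41.6, 37.4 and 28.4 CPM in PNX day 7 and 7.45, 10.9 and 94.5 CPM in sham day 7. The log2 fold change of Rrm2 was -0.08 ± 0.97 with all libraries and 1.96 ± 0.63 without sham replicate 3 (unadjusted p = 0.00617, adjusted p = 0.516). Dut, which keeps uracil out of DNA, had a log2 fold change of 0.17 ± 0.33. When sham replicate 3 was left out all 5 were higher (median 0.75), with 2.00 ± 0.65 for Tk1, 0.75 ± 0.36 for Tyms, 0.71 ± 0.45 for Rrm1 and 0.33 ± 0.38 for Dut.

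Of the 4 genes of chromatin and histone supply, 2 were higher after PNX at day 7 and 2 lower. Chaf1b, a subunit of the CAF-1 complex that places histones behind the fork, had 11.9, 4.98 and 11.1 CPM in PNX day 7 and 1.83, 1.93 and 6.24 CPM in sham day 7. PNX replicate 2 was below sham replicate 3, and the gene had 9 to 86 counts per library here (log2 fold change 1.48 ± 0.81, unadjusted p = 0.0843, adjusted p = 0.487 by edgeR). Without sham replicate 3 its log2 fold change was 2.30 ± 0.96 (unadjusted p = 0.0287, adjusted p = 0.735). Its partner Chaf1a had 6.46, 7.20 and 2.57 CPM in PNX day 7 and 4.78, 5.58 and 6.67 CPM in sham day 7 (-0.08 ± 0.69), and 52.5% of its exon bases overlap Ubxn6 on the opposite strand. Uhrf1, which guides DNA methylation onto the new strand, had 6.12, 14.4 and 6.68 CPM in PNX day 7 and 2.11, 3.65 and 21.0 CPM in sham day 7. Its log2 fold change was -0.00 ± 0.72 with all libraries and 1.65 ± 0.73 without sham replicate 3 (unadjusted p = 0.0383, adjusted p = 0.781). Slbp, which binds the ends of histone mRNAs, had 148, 111 and 142 CPM in PNX day 7 and 108, 106 and 152 CPM in sham day 7, overlapping groups (0.13 ± 0.34). The other fit, without sham replicate 3, had all 4 above 0 (median 0.98), with 0.05 ± 0.82 for Chaf1a and 0.32 ± 0.39 for Slbp.

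The G1/S regulators split evenly at day 7, with 4 of 8 higher after PNX and 4 lower. Ccne1, cyclin E1, had 10.2, 9.14 and 7.84 CPM in PNX day 7 and 0.562, 2.58 and 4.93 CPM in sham day 7. The groups did not overlap, on 4 to 61 counts per library (log2 fold change 1.74 ± 0.81, unadjusted p = 0.0448, adjusted p = 0.377 by edgeR). Ccne2, cyclin E2, had 17.3, 13.6 and 8.22 CPM in PNX day 7 and 7.45, 6.23 and 13.1 CPM in sham day 7, and overlapped (0.54 ± 0.46). The D cyclins, which act earlier in G1, did not share that direction. Ccnd1 had 99.6, 56.8 and 38.0 CPM in PNX day 7 and 46.4, 92.1 and 63.5 CPM in sham day 7 (log2 fold change -0.05, 95% interval -0.86 to 0.75). Ccnd2 had 199, 167 and 164 CPM in PNX day 7 and 254, 216 and 355 CPM in sham day 7, the only gene of the 46 with every PNX library below every sham library (log2 fold change -0.64 ± 0.37, unadjusted p = 0.102, adjusted p = 0.52). Ccnd1 turned positive, to 0.10, when counts were scaled by library totals. The kinases Cdk4 (0.35) and Cdk2 (0.15) and the factors E2f1 (-0.07) and E2f2 (-0.33) had adjusted p of 0.718 to 0.96. Omitting sham replicate 3 left 6 of the 8 higher (median 0.29), with 2.56 ± 0.97 for Ccne1 (unadjusted p = 0.0168, adjusted p = 0.693), 0.92 ± 0.52 for Ccne2, -0.10 ± 0.44 for Ccnd1 and -0.41 ± 0.41 for Ccnd2. The point plot of 12 genes shows these levels in all 4 groups.

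**Figure D4:**
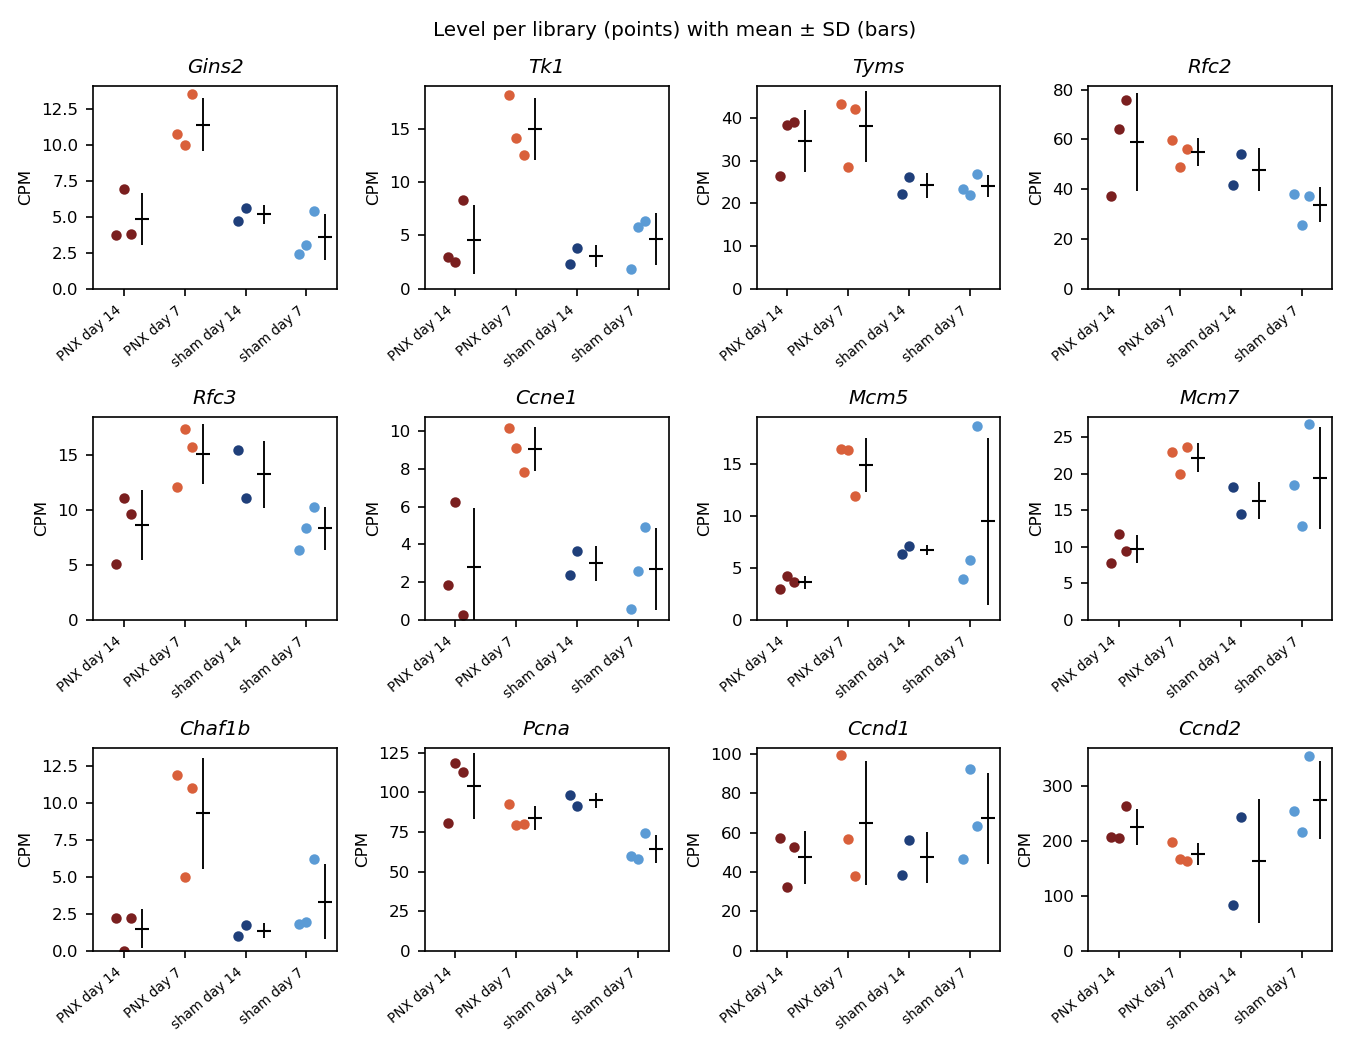
CPM (vertical axes, from 0) of 12 replication and G1/S genes in each library (points) with mean ± SD (bars; n = 3 libraries, 2 for sham day 14) in PNX day 14, PNX day 7, sham day 14 and sham day 7. Gins2, Tk1, Ccne1, Rfc2, Rfc3, Tyms and Pcna have every PNX day 7 point above every sham day 7 point, while Mcm5, Mcm7 and Chaf1b have 1 sham day 7 point in or above the PNX day 7 range.

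The positions of the genes that lead these comparisons, in mm10 with GENCODE M21, are chr8:120578633-120589304 for Gins2, chr11:117815526-117826092 for Tk1, chr5:30058202-30073617 for Tyms, chr5:134581366-134601805 for Rfc2, chr5:151642756-151651242 for Rfc3 and chr7:38097984-38107534 for Ccne1. Mcm5 lies at chr8:75109569-75128439, Mcm7 at chr5:138164583-138172422, Chaf1b at chr16:93883901-93906115 and Pold1 at chr7:44532746-44548849. The annotation behind the counts is not given in the sources used here, and these positions are those of the matching symbols.

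Other genes of the same processes were read from lists of 72 companion genes, all of them tested. At day 7, 40 of the 72 were higher after PNX (55.6%, where 51.7% of all genes were) and 32 lower (median 0.11). None passed the adjusted threshold with edgeR (0.0375% of all genes did). At an unadjusted p under 0.05, 7 were higher (9.72%, against 4.66%) and 3 lower (4.17%, against 8.07%). Without sham day 7 replicate 3, 47 were higher and 25 lower (median 0.21), and 2 passed the adjusted threshold (0.0626% of all genes did). These were Top2a, the topoisomerase of dividing cells, and Asf1b, a histone chaperone, both named after their values were seen. Top2a had 42.8, 47.4 and 27.1 CPM in PNX day 7 and 3.37, 2.15 and 38.6 CPM in sham day 7, with a log2 fold change of 3.79 ± 0.62 without sham replicate 3 (adjusted p = 0.0379 by edgeR) and 1.39 ± 0.97 with it (adjusted p = 0.644). Asf1b had 22.4, 13.6 and 16.3 CPM in PNX day 7 and 1.97, 1.72 and 21.0 CPM in sham day 7, with 3.22 ± 0.57 without that library (adjusted p = 0.0484 by edgeR) and 1.07 ± 0.73 with it (adjusted p = 0.625). In both genes sham replicate 3 stood near the PNX libraries and the other sham libraries far below them. Among 16 genes of origin licensing and firing, 11 were higher. Gmnn, geminin, which blocks relicensing by binding Cdt1, had 14.8, 10.8 and 8.61 CPM in PNX day 7 and 4.08, 1.72 and 6.82 CPM in sham day 7 (log2 fold change 1.42 ± 0.56, unadjusted p = 0.0207, adjusted p = 0.278 by edgeR). Topbp1, needed for origin firing, averaged 20.2 ± 2.73 CPM in PNX day 7 and 11.2 ± 3.77 CPM in sham day 7 (SD, n = 3 each). Dbf4, the activator of the Cdc7 kinase, averaged 3.59 ± 2.23 CPM in PNX day 7 and 1.10 ± 0.831 CPM in sham day 7. Gmnn and Topbp1 did not overlap between the groups; Dbf4 did. The log2 fold changes without sham replicate 3 were 1.94 ± 0.64 for Gmnn, 0.63 ± 0.42 for Topbp1 and 2.40 ± 1.08 for Dbf4, against 0.85 ± 0.39 for Topbp1 and 1.64 ± 0.89 for Dbf4 with it.

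Among 17 fork and polymerase companions, 12 were higher after PNX at day 7. Within polymerase delta the small subunits went apart: Pold4 averaged 23.9 ± 4.57 CPM in PNX day 7 and 12.5 ± 2.83 CPM in sham day 7, and Pold2 averaged 23.7 ± 6.99 CPM in PNX day 7 and 43.8 ± 13.5 CPM in sham day 7 (SD, n = 3 each). Their log2 fold changes were 0.93 ± 0.36 and -0.88 ± 0.44. Rpa3, of the single-strand binding complex, had 0.66 ± 0.41. Of 13 nucleotide and chromatin companions, 6 were higher. Tk2, the mitochondrial thymidine kinase, had 8.50, 12.2 and 11.8 CPM in PNX day 7 and 18.3, 34.6 and 29.6 CPM in sham day 7, opposite in direction to Tk1 (log2 fold change -1.34 ± 0.44, unadjusted p = 0.00717, adjusted p = 0.189 by edgeR). The chromatin remodeller Hells (1.58 ± 0.59) and the histone chaperone Nasp (0.89 ± 0.35) were higher, at adjusted p of 0.243 and 0.276. Leaving sham replicate 3 out gave 0.81 ± 0.42 for Pold4, -0.61 ± 0.48 for Pold2, 0.77 ± 0.48 for Rpa3, -1.28 ± 0.50 for Tk2, 2.48 ± 0.65 for Hells and 0.85 ± 0.41 for Nasp.

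The 19 further cyclins, kinases, E2F and pocket protein genes were higher in 7 cases and lower in 12 after PNX at day 7. Ccna2, cyclin A2 of S and G2 phase, had 29.4, 37.1 and 21.5 CPM in PNX day 7 and 9.0, 8.59 and 15.8 CPM in sham day 7, without overlap (log2 fold change 1.39 ± 0.37, unadjusted p = 0.00155, adjusted p = 0.12 by edgeR). Ccnd3, cyclin D3, had 51.0, 67.6 and 41.1 CPM in PNX day 7 and 70.1, 189.9 and 290.3 CPM in sham day 7 (log2 fold change -1.79 ± 0.45, unadjusted p = 0.000872, adjusted p = 0.103). Every PNX library was below every sham library, and the highest sham value was in replicate 3, where the T-lineage genes were high. E2f6, a repressor of the E2F family, averaged 7.73 ± 0.244 CPM in PNX day 7 and 3.48 ± 0.412 CPM in sham day 7 (SD, n = 3 each). None of the 7 CDK inhibitors had an unadjusted p under 0.05 at day 7. Cdkn1a, p21, had 242, 197 and 129 CPM in PNX day 7 and 194, 262 and 299.6 CPM in sham day 7 (-0.41 ± 0.34). Cdkn1c, p57, had -0.73 ± 0.38 and Cdkn1b, p27, 0.38 ± 0.32. With sham replicate 3 out of the fit, Ccnd3 had -1.29 ± 0.44 (unadjusted p = 0.00941, adjusted p = 0.567 by edgeR), Ccna2 1.73 ± 0.42, E2f6 1.06 ± 0.50, Cdkn1a -0.27 ± 0.39, Cdkn1c -0.34 ± 0.40 and Cdkn1b 0.26 ± 0.37.

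Mki67, a marker of cycling cells that is no member of the set, gave a reference for these sizes. It had 63.4, 49.3 and 32.9 CPM in PNX day 7 and 4.36, 7.30 and 11.6 CPM in sham day 7. It rose after PNX at day 7 in all 3 libraries, with a log2 fold change of 2.64 ± 0.44 (adjusted p = 0.0337 by edgeR), above the highest value among the replication genes, 1.74 for Ccne1. Its adjusted p was above 0.05 when single libraries were left out of the fit: 0.128 after dropping replicate 1 of the PNX group and 0.0549 after dropping replicate 2 of the sham group, both of day 7, and 0.0654 and 0.0703 after dropping replicates 2 and 3 of PNX at day 14. The gene also missed the threshold when the fit held the compared groups alone (adjusted p = 0.0931), a replicate block (0.051) or the background as a covariate (0.108), and when the 3 libraries of highest background were left out (0.106). In the order given, its log2 fold changes were 2.34, 2.55, 2.60 and 2.64 with those single libraries left out. They were 2.70, 2.69, 2.56 and 2.57 in the other fits named. Sham day 7 replicate 3, the highest of all libraries for Mcm2, Rrm2 and Pold1, had 11.6 CPM of Mki67, and without it the log2 fold change of Mki67 was 3.07 ± 0.50 (adjusted p = 0.0379 by edgeR). The difference between Mki67 and the replication genes was not tested.

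At day 14 the levels after PNX were set against 2 sham libraries, to ask whether a difference was still present. The genes stood close to balance: 26 of 46 had a log2 fold change above 0 (56.5%, where 45.1% of all genes did), with a median of 0.10 against -0.07. None passed the adjusted threshold with edgeR, DESeq2 or limma voom, where 1 gene (0.00625%) did over the whole table with edgeR. None had an unadjusted p under 0.05 in either direction, against 3.19% of all genes higher and 3.63% lower. Mcm6 had 35.1, 62.6 and 65.6 CPM in PNX day 14 and 14.1 and 40.9 CPM in sham day 14 (log2 fold change 0.96 ± 0.50, unadjusted p = 0.0696, adjusted p = 0.747 by edgeR), with sham replicate 1 far below the rest. Mcm7 had 7.83, 11.8 and 9.44 CPM in PNX day 14 and 18.1 and 14.5 CPM in sham day 14 (log2 fold change -0.74 ± 0.39, unadjusted p = 0.0747, adjusted p = 0.747). Mcm5 had 2.98, 4.24 and 3.60 CPM in PNX day 14 and 6.38 and 7.08 CPM in sham day 14 (-0.90 ± 0.58). For Mcm5, Mcm7 and Cdc6 all PNX libraries lay below both sham libraries (6.52%, against 8.28% of all genes), and Mcm6 and Mcm7, subunits of the same ring, had log2 fold changes of opposite sign, neither past the test.

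Haematopoietic markers differed between the groups of day 14. All 24 tested were lower in PNX than in sham, with a median log2 fold change of -2.44. Of the 24, 14 were lower at an unadjusted p under 0.05 (58.3%, against 3.63% of all genes), none with an adjusted p under 0.05, and 17 had every PNX library below both sham libraries (8.28% of all genes did). Mzb1, of plasma cells, had 0.560, 0 and 0.674 CPM in PNX day 14 and 16.8 and 26.8 CPM in sham day 14, and Laptm5, of leukocytes, 5.22, 2.04 and 3.37 CPM in PNX day 14 and 33.3 and 26.2 CPM in sham day 14. With the haematopoietic mean as a covariate, 26 of the 46 replication genes were above 0 at day 14 and none had an unadjusted p under 0.05 (2.82% of all genes were higher and 1.55% lower). That mean separates the groups at day 14, so it and the surgery cannot be told apart there. Other lists differed too, where 45.1% of all genes were higher after PNX. Higher were 6 of 9 mesenchymal markers (median 0.91), all 6 mesothelial markers tested (0.86) and 5 of 6 erythroid markers (1.33). Epithelial markers split 5 and 5, and 6 of 10 endothelial markers were higher. The part of these lists in the replication genes was not tested.

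Tyms was the only gene of the set with every PNX library above both sham libraries at day 14 (2.17%, against 9.57% of all genes). It had 26.3, 38.5 and 39.1 CPM in PNX day 14 and 22.2 and 26.2 CPM in sham day 14 (log2 fold change 0.51 ± 0.35, unadjusted p = 0.156, adjusted p = 0.806 by edgeR). Uhrf1 had 3.92, 1.57 and 2.25 CPM in PNX day 14 and 10.1 and 2.56 CPM in sham day 14, where the sham level rests on replicate 1 (-1.23 ± 0.87). The genes that led at day 7 were near each other here: Gins2 had 3.73, 6.91 and 3.82 CPM in PNX day 14 and 4.70 and 5.61 CPM in sham day 14, and Tk1 had 2.98, 2.51 and 8.32 CPM and 2.35 and 3.78 CPM in the same groups. Pcna had 80.6, 119 and 113 CPM in PNX day 14 and 98.4 and 91.7 CPM in sham day 14 (log2 fold change 0.13, 95% interval -0.55 to 0.82). The 2 sham libraries differed from each other in depth, at 2539628 counts in replicate 1 and 9008592 in replicate 2. Without sham replicate 2, 7 of 47 genes were higher at an unadjusted p under 0.05 (14.9%, against 12.4% of all genes) and the median was 0.49, and without sham replicate 1 the median was -0.09. Each of these fits leaves 1 sham library at day 14, which is assumed to vary like the other groups.

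The D and E cyclins and the remaining genes of day 14 were as uneven between libraries as between groups. Ccnd1 had 57.5, 32.2 and 52.6 CPM in PNX day 14 and 38.3 and 56.5 CPM in sham day 14. Ccnd2 had 207, 205 and 264 CPM in PNX day 14 and 83.7 and 244 CPM in sham day 14, with sham replicate 1 the lowest of all 11 libraries. Ccne1 had 1.87, 6.28 and 0.225 CPM in PNX day 14 and 2.35 and 3.66 CPM in sham day 14, and Ccne2 had 12.3, 5.96 and 19.8 CPM and 10.1 and 12.3 CPM. Their groups overlapped in each case. Of the clamp loader, Rfc2 had 37.1, 64.2 and 75.7 CPM in PNX day 14 and 41.7 and 54.2 CPM in sham day 14. Rfc3 had 5.04, 11.1 and 9.66 CPM in PNX day 14 and 15.4 and 11.1 CPM in sham day 14, the highest PNX library being close to the lowest sham library (-0.61 ± 0.44).

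Further values at day 14, of genes named for day 7, ran as follows by role. Orc6 had 25.9, 44.9 and 31.5 CPM in PNX day 14 and 33.9 and 26.1 CPM in sham day 14. Gins1 had 1.31, 4.39 and 1.57 CPM in PNX day 14 and 6.72 and 1.71 CPM in sham day 14, and Mcm10 had 1.87, 0.314 and 0.899 CPM and 3.69 and 1.22 CPM. Both helicase genes were highest in sham replicate 1, on 20 and 11 counts. Pola2 had 7.28, 7.38 and 3.60 CPM in PNX day 14 and 5.71 and 8.66 CPM in sham day 14, and Prim2 had 20.1, 18.4 and 8.54 CPM and 7.73 and 17.1 CPM. Rrm1 had 56.0, 76.3 and 39.6 CPM in PNX day 14 and 22.2 and 56.4 CPM in sham day 14. In these 3 genes of strand synthesis and nucleotide supply the groups overlapped. Slbp had 109, 161 and 106 CPM in PNX day 14 and 81.0 and 168 CPM in sham day 14, its lowest and highest library of the series both in sham. Of the 72 companions, 33 were higher after PNX at day 14 (45.8%, against 45.1% of all genes) and 39 lower. Among them 4 were higher (5.56%, against 3.19%) and 3 lower (4.17%, against 3.63%) at an unadjusted p under 0.05, and none passed the adjusted threshold.

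In the mean of both days, 30 of the 46 genes were higher after PNX (65.2%, where 46.6% of all genes were), with a median of 0.11 against -0.04. None passed the adjusted threshold with edgeR, where 31 genes (0.194%) did over the whole table. Tk1, Tyms and Gins2 were higher at an unadjusted p under 0.05 (6.52%, against 3.92%) and none was lower (6.37%). Tk1 had the largest of these (log2 fold change 1.10 ± 0.43, unadjusted p = 0.019, adjusted p = 0.359). Tyms had 0.59 ± 0.23 (adjusted p = 0.372), with a PNX level above sham at each day. Gins2 had 0.78 ± 0.36, Rfc2 0.50 ± 0.24 and Mcm6 0.63 ± 0.33, at adjusted p of 0.475, 0.503 and 0.539 by edgeR. The count of 3 was 1 when replicate 1 or 3 of PNX day 7 or replicate 2 of PNX day 14 was left out. In those fits 2.71% to 2.95% of all genes were higher at that level. It was 5 when replicate 1 of PNX day 14 was left out (10.6%, against 4.15% of all genes). The median was 0.07 without replicate 1 of sham day 14 (0.07 for all genes). It was 0.36 without replicate 2 of sham day 14 (-0.02 for all genes). Each of these leaves 1 sham library at day 14. Without sham day 7 replicate 3, 38 of 46 were higher (82.6%, against 46.1% of all genes, median 0.34). There Gins2, Tk1, Tyms and Mcm6 were higher at an unadjusted p under 0.05 (8.7%, against 3.46%), none was lower (3.98%), and none passed the adjusted threshold (0.144% of all genes did). Among the companions the lowest adjusted p was 0.0556, for Ccnd3 (log2 fold change -1.61 ± 0.33), which had 36.9, 16.9 and 18.2 CPM in PNX day 14 and 74.2 and 56.2 CPM in sham day 14.

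Whether the effect of PNX differed between the days was tested as the effect at day 14 minus that at day 7. The difference was below 0 for 29 of the 46 genes and above 0 for 17 (37%, where 49.5% of all genes were above), with a median of -0.17 against -0.01. None passed the adjusted threshold with edgeR, and over the whole table none did (0%). At an unadjusted p under 0.05, Gins2 and Rfc3 were lower (4.35%, against 4.6%) and Pold1 was higher (2.17%, against 4.16%). Gins2 had -1.76 ± 0.72 and Rfc3 -1.47 ± 0.60, at adjusted p of 0.502 and 0.501 by edgeR. Pold1 had 2.51 ± 1.03, Mcm5 -1.54 ± 0.76 and Ccnd2 1.10 ± 0.56. Without sham day 7 replicate 3, 7 were lower (15.2%, against 3.23%), namely Cdc6, Mcm5, Mcm7, Gins2, Rfc3, Rrm2 and Uhrf1, none was higher (2.21%), and the median was -0.44, with 11 genes above 0 (23.9%, against 48.3%) and none past the adjusted threshold (0%). Without sham day 14 replicate 2 the median was 0.24, above 0. That fit rests on 1 sham library at day 14, the shallowest of all, whose spread is taken from the other groups. There Ccnd2 passed the adjusted threshold (2.27 ± 0.55, adjusted p = 0.0413), 1 of 47 genes (2.13%), where 2.09% of all genes did.

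Day 14 was compared with day 7 after PNX, to follow the genes as regrowth proceeds. Most stood lower at day 14: 36 of the 46 had a log2 fold change below 0, with a median of -0.43 against -0.06 for all genes, and 10 were above 0 (21.7%, where 45.9% of all genes were). None passed the adjusted threshold with edgeR, and neither did any gene of the whole table (0%). At an unadjusted p under 0.05, 7 were lower (15.2%, against 3.13%): Mcm5, Mcm7, Gins2, Tk1, Chaf1b, Uhrf1 and E2f1. None was higher (3.72% of all genes were). All 3 day 14 libraries lay below all 3 day 7 libraries for 14 genes (30.4%, against 9.08%). These were Cdc6, Mcm2, Mcm5, Mcm7, Mcm10, Gins2, Rfc3, Fen1, Rrm2, Tk1, Chaf1b, Uhrf1, Ccne1 and E2f1. Ccnd2 alone lay wholly above (2.17%, against 9.02%). No sham library enters these group means, so the library with T-lineage transcripts bears on this comparison only through the shared estimate of spread. Without it 11 genes were lower at an unadjusted p under 0.05 (23.9%, against 3.1% of all genes). When each other library was left out 5 to 10 were, with 1.89% to 5.82% of all genes. Krt8 also stood lower at day 14 after PNX, at 79.3, 87.1 and 49.7 CPM at day 14 and 167, 91.1 and 142 CPM at day 7, without overlap (log2 fold change -0.89 ± 0.35, unadjusted p = 0.0221, adjusted p = 0.72 by edgeR), while Krt18 overlapped (-0.44 ± 0.34). The epithelial list as a whole went the other way: 7 of its 10 markers were higher at day 14 and 3 lower, with a median of 0.95. The part of these markers was not tested.

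Licensing genes stood lower at day 14 than at day 7 after PNX in 8 of 9 cases, with a median of -0.61. Mcm5 had 2.98, 4.24 and 3.60 CPM at day 14 and 16.5, 16.3 and 11.9 CPM at day 7 (log2 fold change -2.04 ± 0.53, unadjusted p = 0.00116, adjusted p = 0.394 by edgeR). Mcm7 had 7.83, 11.8 and 9.44 CPM at day 14 and 22.9, 19.9 and 23.6 CPM at day 7 (log2 fold change -1.19 ± 0.35, unadjusted p = 0.00354, adjusted p = 0.53). The highest day 14 library of each was well below the lowest day 7 library. Mcm2 had 4.85, 5.18 and 6.97 CPM at day 14 and 13.1, 16.3 and 9.38 CPM at day 7 (-1.18 ± 0.57), and Mcm3 had -1.14 ± 0.55. Mcm4 and Mcm6, subunits of the same ring, had -0.47 ± 0.43 and -0.32 ± 0.43, and Orc6 was level at 0.07 ± 0.31. In the fit of the 2 PNX groups alone Mcm5 passed (-2.08 ± 0.41, adjusted p = 0.0293), 1 of 46 genes (2.17%), where 0.614% of all genes did. Limma voom called Mcm5, Mcm7 and Tk1 (adjusted p = 0.0428, 0.0446 and 0.0393), 3 of 46 (6.52%), where it called 1.09% of all genes.

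Outside licensing, Chaf1b had the lowest log2 fold change between the days after PNX. It had 2.24, 0 and 2.25 CPM at day 14 and 11.9, 4.98 and 11.1 CPM at day 7 (log2 fold change -2.67 ± 0.87, unadjusted p = 0.00664, adjusted p = 0.592 by edgeR), on at most 86 counts in a library and with 1 day 14 library at 0. Tk1 had 2.98, 2.51 and 8.32 CPM at day 14 and 18.2, 14.1 and 12.6 CPM at day 7 (log2 fold change -1.71 ± 0.56, unadjusted p = 0.00646, adjusted p = 0.592). Gins2 had 3.73, 6.91 and 3.82 CPM at day 14 and 10.7, 9.97 and 13.5 CPM at day 7 (-1.23 ± 0.48). Uhrf1 had 3.92, 1.57 and 2.25 CPM at day 14 and 6.12, 14.4 and 6.68 CPM at day 7 (-1.79 ± 0.78). None of the 4 overlapped between the days. Chaf1a had 2.24, 3.77 and 0.225 CPM at day 14, Pold1 2.98, 6.43 and 4.05 CPM and the ribonucleotide reductase subunit Rrm2 12.1, 2.98 and 16 CPM. E2f1, itself a target of E2F, had 4.48, 6.12 and 5.84 CPM at day 14 and 9.69, 14.9 and 8.87 CPM at day 7 (-1.01 ± 0.41, adjusted p = 0.724).

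Other genes had small log2 fold changes between the days after PNX. Pcna, Rfc2, Tyms, Slbp, Pola1, Prim1, Cdk2 and Ccne2 had log2 fold changes between -0.14 and 0.31 for day 14 over day 7, with SE of 0.29 to 0.46. The 95% interval of Pcna was -0.30 to 0.92 and that of Tyms -0.77 to 0.50, so changes within these limits are not excluded. These 8 genes were picked after their values were seen. Ccnd2 had 207, 205 and 264 CPM at day 14 and 199, 167 and 164 CPM at day 7 (0.35 ± 0.37). Of the 72 companions, 31 were higher at day 14 after PNX (43.1%, against 45.9% of all genes) and 41 lower. Of these 4 were higher (5.56%, against 3.72%) and 5 lower (6.94%, against 3.13%) at an unadjusted p under 0.05, and none passed the adjusted threshold. Mki67 had 6.53, 13.3 and 11.9 CPM at day 14 and 63.4, 49.3 and 32.9 CPM at day 7. After sham Mki67 had 24.2 and 12.4 CPM at day 14, both above the 4.36, 7.30 and 11.6 CPM at day 7.

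**Figure D5:**
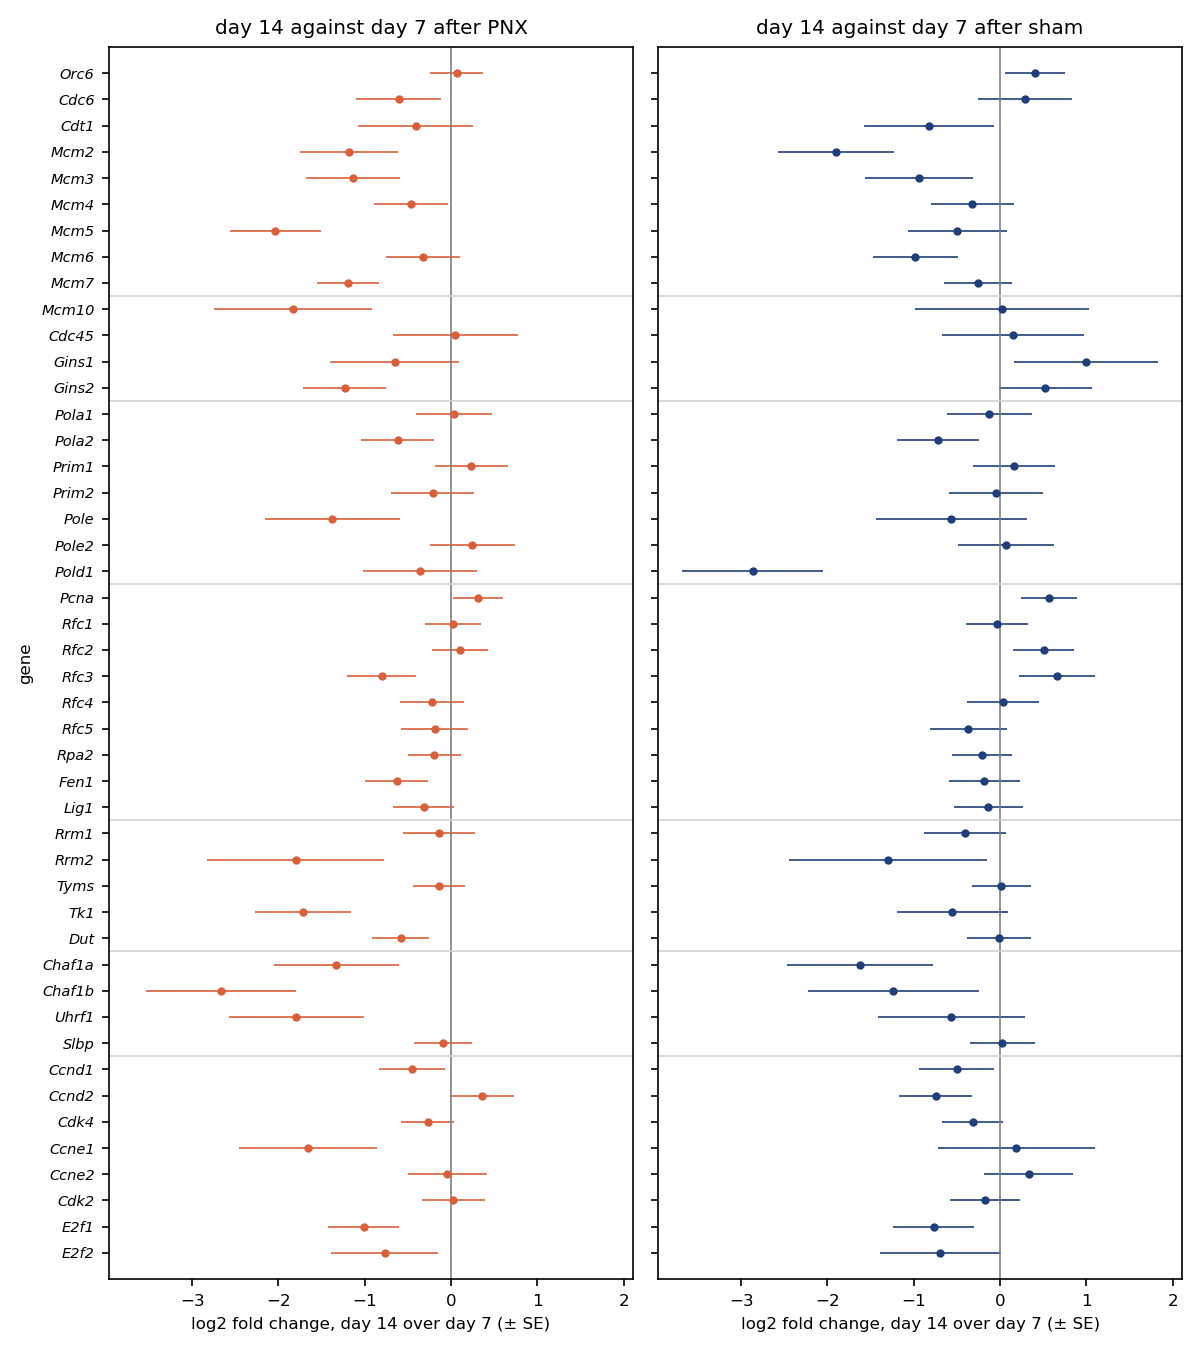
Log2 fold change of day 14 over day 7 (horizontal axes, points) with its SE (lines) for the 46 tested genes in order of role, after PNX (left) and after sham (right). After PNX 36 of 46 points lie below 0, with Chaf1b at -2.67 and Mcm5 at -2.04 lowest; after sham 30 do, with Pold1 at -2.87 and Mcm2 at -1.90 lowest.

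After sham, the same comparison of days gave 30 of 46 genes below 0 and 16 above (34.8%, where 52.5% of all genes were above), with a median of -0.20 against 0.05. None passed the adjusted threshold with edgeR, where 3 genes (0.0187%) did over the whole table. Pold1 and Mcm2 were lower at an unadjusted p under 0.05 (4.35%, against 7.94%), and none was higher (6.32%). Pold1 had 3.69 and 1.95 CPM at day 14 and 3.37, 14.2 and 41.8 CPM at day 7 (log2 fold change -2.87 ± 0.82, unadjusted p = 0.00272, adjusted p = 0.126 by edgeR), and DESeq2 called it (adjusted p = 0.0167), 1 of 46 genes (2.17%), where it called 5.74% of the genes it gave an adjusted p. Mcm2 had 3.69 and 5.49 CPM at day 14 and 5.20, 9.66 and 37.5 CPM at day 7 (log2 fold change -1.90 ± 0.67, unadjusted p = 0.0114, adjusted p = 0.183). Sham day 7 replicate 3 held the highest level of both genes, and without it the log2 fold changes were -1.67 ± 0.76 (adjusted p = 0.595) and -0.66 ± 0.55 (adjusted p = 0.895). Without that library 25 of 46 genes were above 0 (54.3%, against 52.4%), and the median was 0.07. Pold1 was then the only one lower at an unadjusted p under 0.05 (2.17%, against 3.8%), none was higher (4.23%), and none passed the adjusted threshold (0.00626% of all genes did). With the haematopoietic mean as a covariate, 25 of 46 were above 0 (50.1% of all genes were), with a median of 0.10. That mean was 3.77 and 3.59 in sham day 14 and 1.17 to 2.61 in sham day 7. It separates these groups, so it and the day cannot be told apart here. Haematopoietic markers themselves were higher at day 14 after sham for 21 of 24, 12 of them at an unadjusted p under 0.05 (50%, against 6.32% of all genes).

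Licensing genes were lower at day 14 than at day 7 after sham in 7 of 9 cases, and all 4 helicase genes were above 0. Without sham day 7 replicate 3, 5 of the 9 licensing genes were lower and 4 higher (median -0.10), and all 4 helicase genes were again above 0. Mcm6 had 14.1 and 40.9 CPM at day 14 and 60.6, 25.6 and 78.7 CPM at day 7 (-0.98 ± 0.50, adjusted p = 0.391 by edgeR). Chaf1a had 1.68 and 1.95 CPM at day 14 and 4.78, 5.58 and 6.67 CPM at day 7 (-1.62 ± 0.85). Its partner Chaf1b had 1.01 and 1.71 CPM at day 14 (-1.24 ± 0.99). Pcna, Orc6, Rfc2 and Rfc3 had both day 14 libraries above all day 7 libraries (8.7%, against 12.5% of all genes). Chaf1a, Chaf1b, E2f1, Pola2 and Rpa2 had them below (10.9%, against 11.8%). Without sham day 7 replicate 1, Pold1 (-3.37 ± 0.64, adjusted p = 0.0141) and Mcm2 (-2.33 ± 0.59, adjusted p = 0.039) passed, 2 of 46 genes (4.35%), where 3.41% of all genes did. Without sham day 14 replicate 2, which leaves 1 library at day 14 whose spread comes from the other groups, Ccnd2 passed (-1.89 ± 0.47, adjusted p = 0.0296). That is 1 of 47 genes (2.13%), where 5.41% of all genes passed, and the median was -0.70. The PNX and sham comparisons between days share no library, and their difference is the test of the effect of PNX at day 14 minus that at day 7 given above.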

How the data were processed

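Bulk RNA sequencing measured transcripts of sorted lung mesenchymal cells in 11 libraries. Column-purified RNA went into low-input libraries, per the labels' protocols. The authors deposited read counts per gene symbol, whole numbers with no scaling, from mm10 (per the submitters' processing notes, which also name bcl2fastq 2.20.0.422). Aligner, counting tool, annotation and strand setting are not given in the sources used here.

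Groups (surgery and day) came from the labels. In R 4.3.3, edgeR 4.0.16 (filterByExpr, TMM factors and 1 robust quasi-likelihood fit with a mean for each of 4 groups) gave 6 comparisons, with Benjamini-Hochberg adjustment over 16011 genes and a threshold of 0.05. The filter removed 8400 genes. Each SE was derived from the fold change and its F statistic, and is approximate at few counts. Total counts were 4733716 to 7895688 in PNX day 14, 2963341 to 7614122 in PNX day 7, 2539628 and 9008592 in sham day 14 and 4082935 to 8362119 in sham day 7. Spread between libraries gave a square root of the dispersion of 0.442 (7 residual degrees of freedom).

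The members and gene lists were chosen with earlier results of these data known. Genes given in every library are the 3 of smallest p per role at day 7, the 5 of smallest p in each other comparison, and Pcna, Ccnd1 and Ccnd2; up to 3 companions per list follow the same rule, with Cdkn1a added. The T-lineage list, Rrm2 and other genes said to be picked later fall outside that rule. Alternatives were RLE size factors, total counts, no filter, 1 CPM in 5 libraries, DESeq2 1.42.0, limma 3.58.1 voom with sample weights, only the groups compared, a replicate block, a background or haematopoietic covariate, leaving out the 3 libraries of most olfactory and vomeronasal receptor counts (the background), and leaving out each library. Only the main edgeR fit was run on simulated counts, with changes planted in PNX day 7 that were larger than most described here. The alternatives were not run on simulated counts, and no result above rests on the simulation. Promoters came from RefSeq (GRCm38.p6), locations and exon lengths from GENCODE M21. Figures were drawn with matplotlib 3.10.9.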

Additional observations from a re-analysis of the deposited data

How the results depend on the processing

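Over the 25 genes given in every library, the alternatives gave 1024 values, of which 989 kept their direction and their side of the threshold, 13 moved past it and 22 changed sign. At day 7 the number of genes higher at an unadjusted p under 0.05, 6 of 46, was 3 with no filter on low counts, with the replicate block and when the 3 libraries of highest background were left out, 8 with limma voom and with only the groups compared, 9 with total counts and with the background covariate, and 2 to 9 when 1 library was left out of a group of 3. Of all genes 4.66% were higher at that level in the main fit. The share was 2.94% with no filter, 3.81% with the block and 4.91% without the 3 libraries. It was 9.62% with limma voom, 7.06% with only the groups compared, 7.96% with total counts and 5.79% with the background covariate. Leaving 1 library out of a group of 3 gave 2.54% to 5.31%. The number past the adjusted threshold was 1 with DESeq2, 2 with limma voom and 0 to 1 when 1 library was left out (Pold1, without sham day 7 replicate 1), where 3.82%, 5.82% and 2.66% of all genes passed in these 3 fits; the median was 0.02 to 0.59. At day 14 the median was -0.09 to 0.49 when 1 library was left out. For the effect at day 14 minus that at day 7, the median was -0.58 with total counts and -0.44 to 0.24 when 1 library was left out, with 0 to 1 gene past the adjusted threshold. Scaling by total counts shifted the median of all genes by 0.18 at day 7, by -0.19 at day 14, by -0.37 for the difference of effects and by -0.29 between days after PNX. For the difference of effects with total counts, 0 genes were higher and 4 lower (8.7%) at an unadjusted p under 0.05. Of all genes 1.96% were higher and 8.54% lower there. In the main fit the genes were 1 and 2, where 4.16% and 4.6% of all genes were. Between days after PNX, the 7 genes lower at an unadjusted p under 0.05 became 16 with total counts, 11 with DESeq2, 18 with limma voom, 13 with only the groups compared, 11 with the replicate block, 13 with the background covariate and 5 to 11 when 1 library was left out. Of all genes 3.13% were lower at that level with all libraries, against 7.66% with total counts, 3.79% with DESeq2, 7.71% with limma voom, 5.49% with only the groups compared, 2.5% with the replicate block and 4.24% with the background covariate; 3 passed the adjusted threshold with limma voom and 1 with only the groups compared. Between days after sham, 1 passed with DESeq2 and 0 to 2 when 1 library was left out, with a median of -0.70 to 0.07 and of 0.10 with the haematopoietic covariate, where 25 of 46 were above 0 in place of 16. The haematopoietic covariate separates the days after sham, so it and the day cannot be told apart there. DESeq2 gave adjusted p-values to part of the genes, which its shares are taken over.

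Changes of sign at day 7 were Mcm2 (0.05 with the background covariate), Chaf1a (0.15 with total counts, 0.05 with limma voom) and Ccnd1 (0.10 with total counts, 0.38 with limma voom, 0.30 without the 3 libraries of highest background, 0.03 with the haematopoietic covariate). When 1 library was left out, the ranges that crossed 0 were -0.88 to 0.80 for Mcm2, -0.11 to 0.71 for Rrm1, -0.36 to 0.22 for Chaf1a, -0.00 to 0.32 for Slbp and -0.56 to 0.19 for Ccnd1. With the haematopoietic covariate, Mcm5 (0.06), Mcm6 (-0.86) and Uhrf1 (0.04) changed sign at day 14, and Mcm6 in the mean of both days (-0.29) and between days after sham (0.67). Uhrf1 was 0.03 at day 14 without the 3 libraries of highest background. The cause of these changes was not tested. The labels do not say that a replicate number marks a shared animal or day, so the numbers were not taken to pair libraries. Same-numbered libraries had correlations of their deviations from the group means of -0.592 to 0.532. Sham day 14 has 2 libraries, whose deviations mirror each other, so its correlations come in equal and opposite pairs and cannot decide on pairing. The replicate block changed no call of a replication gene at the adjusted threshold. The fit of only the groups compared was not run for the mean of both days or the difference of effects, which use all 4 groups. Depth limits the genes of low counts, among them Mcm10, Gins1, Chaf1b and Ccne1.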
